A study of Medicago sativa with 3 samples.

Results

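The genes described here take part in building the polymers and structural proteins of the plant cell wall: cellulose synthases and cellulose synthase-like proteins, COBRA proteins, callose synthases, galacturonosyltransferases, fasciclin-like and other arabinogalactan proteins, and extensins. An assembled transcript was taken as a member when its protein and nucleotide matches were both from a legume and the protein match named one of these families. The rule used annotation only and found 214 of the 95646 assembled transcripts, or 214 of the 52669 with legume protein and nucleotide matches. Of these members, 144 matched a protein of Medicago truncatula, 65 of Glycine max and 5 of Pisum sativum. The words cellulose synthase-interactive and irregular xylem gave 0 members. Transcripts that carry the short name IRX instead, such as the IRX10L-like CL11329.Contig2_All, fall outside the rule.

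Cellulose is spun at the plasma membrane by complexes of CESA proteins, which use UDP-glucose and differ between the thin primary wall of growing cells and the thick secondary wall of xylem and fibres. Callose, a different glucan, is laid down at cell plates, sieve plates, plasmodesmata and wounds. Galacturonosyltransferases build pectin, while extensins and arabinogalactan proteins are glycoproteins, many of them rich in hydroxyproline, that are secreted into the wall. New shoots need all of these to build their walls. Roles given below are those known for the Arabidopsis protein in the best Swiss-Prot match, unless another species is named.

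RNA came from Medicago sativa ssp. falcata, a yellow-flowered alfalfa, in 3 bulks of leaf, stem and root tissue, each from 10 plants. Population MF200401, chosen for rapid recovery under sheep grazing, gave the tolerant grazed and the tolerant ungrazed library, and population MF200402, chosen for poor recovery, gave the intolerant grazed library. The plants of both populations were vegetative propagules of the selected plants. Tissue was taken 1 week after the sheep left. The ungrazed plants stood in a fenced block and were cut back to a similar height when the sheep were removed. Continuous grazing, block and the kind of last defoliation therefore cannot be told apart. There was no ungrazed intolerant library, so a difference between populations cannot be told apart from a difference in their response to grazing.

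Each condition had 1 library and therefore no replicate, and no test across replicates was possible. The intervals below were taken from the fragments of a pair of libraries by the exact method of Clopper and Pearson at 95%, and cover counting error only. The libraries held 22.3 to 22.8 M aligned fragments (M, mega), and a count of 3 fragments, taken as the floor, corresponded to 0.131 to 0.135 FPKM (fragments per kilobase of transcript and mega-fragment aligned) in a transcript of 1 kilobase. Fragments on transcripts without a legume protein match made up 18.4% of the tolerant ungrazed, 18.1% of the tolerant grazed and 9.62% of the intolerant grazed library. Chlorophyll a/b-binding transcripts, which mark green shoot tissue, had a summed level of 2618, 4461 and 11250 FPKM in the same order over 12 transcripts, of which 10 had a log2 ratio above 0 in each comparison. Laccase transcripts, a marker of lignifying tissue, summed to 136, 115 and 183 FPKM over 29 transcripts. Although that sum was lower with grazing, 24 of the 29 had a log2 ratio above 0, and of the 20 with enough fragments to be compared 13 were higher by at least 1 on the log2 scale and 2 lower, and between populations 9 were higher and 2 lower. The searches for leghemoglobin and B-type cyclins matched 0 transcripts. The part of shoot tissue and of foreign RNA in the results was not tested, and in bulks of whole plants fewer cells of a type and less RNA per cell cannot be told apart.

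The median log2 ratio over the 48423 transcripts with at least 1 FPKM in every library was 0.09 between the tolerant grazed and tolerant ungrazed libraries, and 0.24 between the intolerant grazed and tolerant grazed libraries. Ratios below are of FPKM as deposited, and a log2 ratio above 0 but smaller than these medians falls below 0 when the libraries are rescaled to a median of 0. Members with at least 20 fragments on average over the 3 libraries were compared, 151 of the 214, and a transcript was counted as higher or lower at a log2 ratio of at least 1 in absolute value. The other 63 members had at most 34 fragments in any library, and 22 of them were cellulose synthases and 23 callose synthases. The median length of all members was 593 bases and the longest had 8149, so that many members are pieces of a longer messenger RNA. Counts of transcripts are thus not counts of genes: 90 members belonged to 41 assembly clusters, and 114 members named 50 Medicago truncatula gene models, 27 of them hit by several members.

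With grazing of the tolerant population, 26 of the 151 members (17.2%) were higher and 5 (3.31%) lower. Over all 50214 transcripts with the same minimum, 11.3% were higher and 10.7% lower, and over the 38413 with legume matches 10.5% were higher and 5.80% lower. The median log2 ratio of the members was 0.39, beside 0.11 for the legume-matched and 0.07 for all transcripts. Galacturonosyltransferases had the highest median among the families with more than 2 members, 0.60, and the cellulose synthases the lowest, 0.25. Most single shifts were small: 112 of the 151 members had a ratio above 0, and for 79 of them the interval lay wholly above 0 (52.3%), against 28 wholly below (18.5%). Over all transcripts the interval lay above 0 in 29.4% and below in 22.8%, and over legume-matched ones in 31.9% and 19.3%. Under the study's joint rule, which adds a Poisson test of the reads of both libraries, 19 members were higher and 3 lower, beside 7.87% and 9.02% of all transcripts and 7.68% and 4.52% of the legume-matched ones.

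Between the grazed populations, 23 members (15.2%) were higher in the intolerant library and 11 (7.28%) lower. The background was 17.7% higher and 14.7% lower over all transcripts, and 16.4% and 10.3% over the legume-matched ones, so neither share of members exceeded it. The median of the members was 0.12, below the 0.25 of the legume-matched transcripts and the 0.19 of all transcripts, and after rescaling it was -0.12, with 17 members higher and 19 lower. Families differed in direction: 9 callose synthases were higher and 0 lower, whereas 3 cellulose synthase-like transcripts were higher and 5 lower. The 9 are not 9 genes: 3 match CALS9 and 3 name the gene model MTR_7g005950. Summed over its members, that gene model had a log2 ratio of only 0.46 (interval 0.30 to 0.62). Also, 2 of the 9 reached the minimum of fragments only through the intolerant library. The interval lay wholly above 0 in 62 members (41.1%) and below in 40 (26.5%), beside 40.3% and 24.7% of all transcripts and 43.8% and 22.5% of the legume-matched ones. The joint rule kept 21 members higher and 11 lower, beside 14.8% and 12.2% of all and 14.2% and 9.17% of legume-matched transcripts. This comparison shares the tolerant grazed library with the first, and a high or low count in that library moves both ratios in opposite directions.

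**Figure D1:**
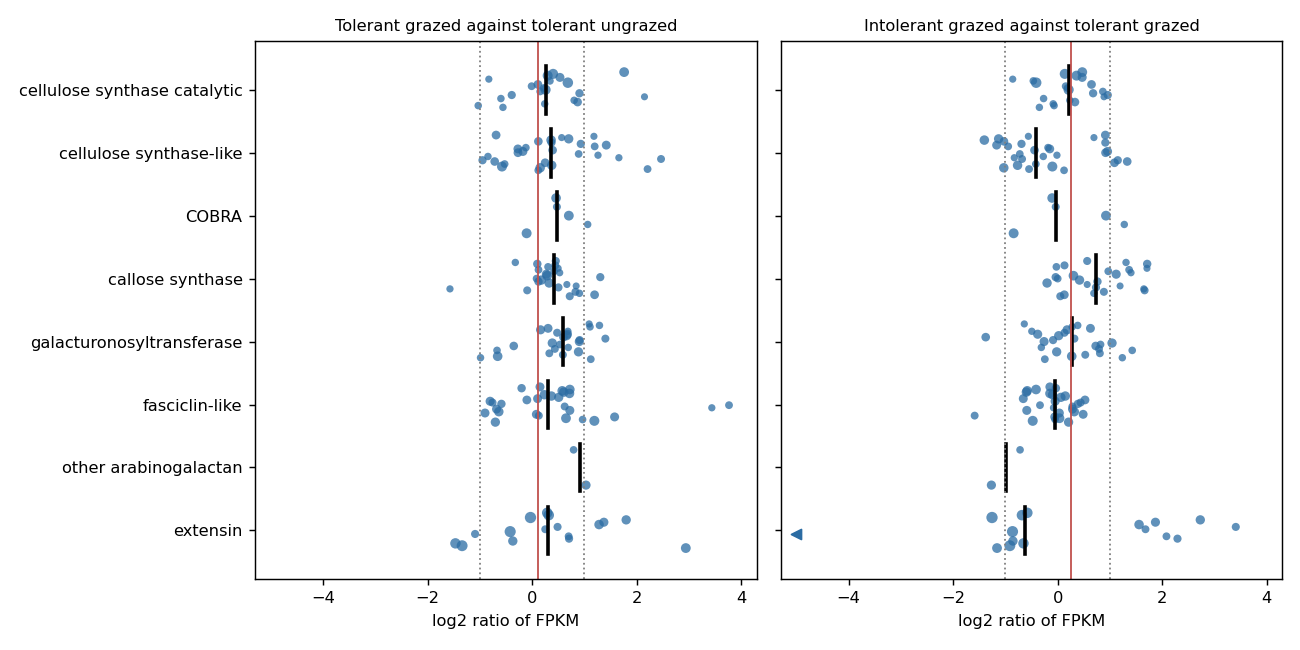
Log2 ratio of FPKM (horizontal axis) of the 151 members with at least 20 fragments on average, by family, for tolerant grazed against tolerant ungrazed (left) and intolerant grazed against tolerant grazed (right). Each point is a transcript, sized by its mean fragments; black bars are family medians, the red line is the median of legume-matched transcripts (0.11 left, 0.25 right), dotted lines mark the threshold of 1, and the arrowhead is an extensin-like transcript with 0 fragments in the intolerant library. Most families lie to the right of the red line on the left, and callose synthases (median 0.73) do so on the right, where cellulose synthase-like proteins (median -0.42) lie to its left.

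**Figure D2:**
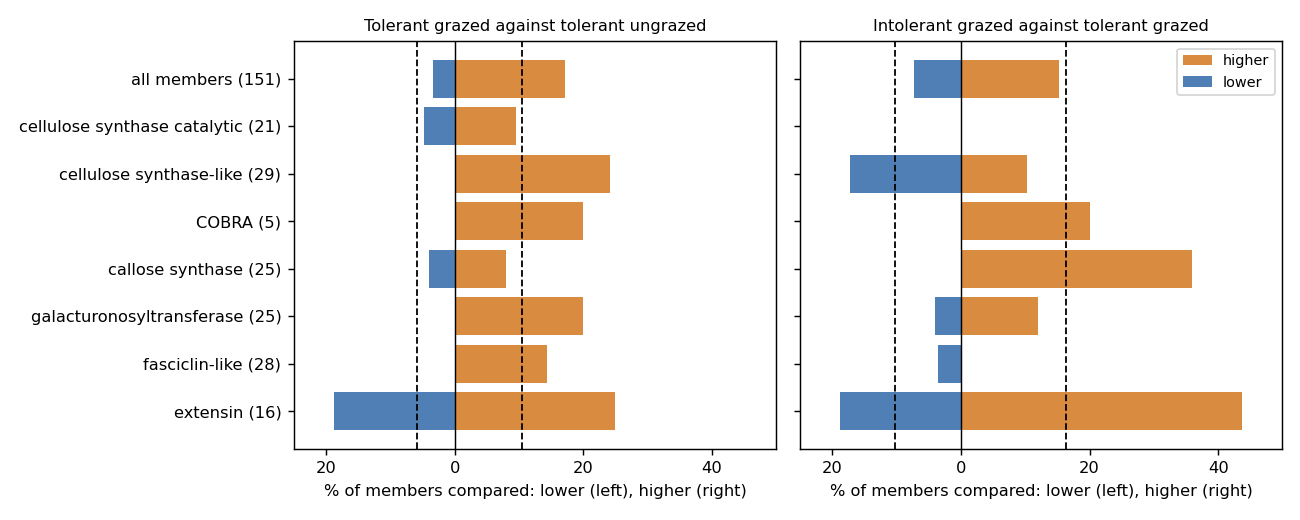
Share of members past the threshold (horizontal axis, in % of members compared, whose number stands in parentheses), higher to the right of 0 and lower to the left, for families with at least 5 members compared. Dashed lines give the shares over all legume-matched transcripts, 10.5% higher and 5.80% lower on the left and 16.4% and 10.3% on the right. Callose synthases reach 36.0% higher in the intolerant library with 0 lower, a share that includes 2 pieces which reached the minimum only through that library. Extensins exceed both dashed lines in both comparisons. Between populations, the 7 extensins counted as higher are those named as lipid transfer or pollen Ole e 1 proteins. The other 9 extensins had ratios below 0 there.

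Among the cellulose synthases, the catalytic subunits of the primary wall were the abundant ones, and the 4 long transcripts that match them were higher after grazing of the tolerant population. Unigene14626_All, whose best Swiss-Prot match is CESA2 and whose gene model is MTR_8g092590, had 81.7 FPKM in the tolerant ungrazed, 131 in the tolerant grazed and 98.4 in the intolerant grazed library. It was highest in the tolerant grazed library, 1.60-fold above the ungrazed one (log2 ratio 0.68, interval 0.64 to 0.72), and 1.33-fold lower in the intolerant library (-0.41, -0.45 to -0.37). Unigene18358_All, the CESA1 match and a core subunit of primary wall complexes, had 51.3, 61.2 and 70.7 FPKM in the same order of libraries. The contigs CL3162.Contig1_All and CL3162.Contig3_All match CESA3, another core subunit, and had 38.1, 50.3 and 55.2 FPKM and 28.8, 35.4 and 45.4 FPKM. CESA1 and both CESA3 contigs were thus lowest in the ungrazed and highest in the intolerant library, although the second step was small and turned below 0 on rescaling for Unigene18358_All (-0.03) and CL3162.Contig1_All (-0.10).

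Transcripts matching the secondary wall subunits CESA4, CESA7 and CESA8, which thicken xylem and fibre walls, were present at a much lower level and in pieces. Their fragments were summed over all pieces of a subunit, a grouping chosen after the values were seen. The 6 pieces matching CESA4 had 410, 430 and 718 fragments, the 7 matching CESA7 had 280, 408 and 574, and the 7 matching CESA8 had 522, 598 and 767. All 3 sums were highest in the intolerant library. With grazing the log2 ratio was 0.08 for CESA4 (interval -0.12 to 0.28), 0.55 for CESA7 (0.33 to 0.78) and 0.21 for CESA8 (0.04 to 0.38), and between populations it was 0.76 (0.59 to 0.94), 0.52 (0.33 to 0.70) and 0.38 (0.23 to 0.54). Per length of sequence the 3 sums lay between 3.08 and 8.18 FPKM, while the 8 pieces matching the other Arabidopsis CESA proteins together had 46.3, 64.6 and 62.2.

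The longest secondary wall transcript, CL6491.Contig1_All, matches CESA8 and had 346, 496 and 675 fragments, a log2 ratio of 0.53 with grazing and 0.47 between populations. The 10 short members that name the gene model MTR_8g086600, most of which have a CESA protein as their Swiss-Prot match, went the other way with grazing, at 341, 248 and 235 fragments in sum (log2 ratio -0.45, interval -0.69 to -0.21). One of them, Unigene7507_All, was the only cellulose synthase counted as lower, with 66, 32 and 30 fragments (-1.03, -1.69 to -0.40). Another of the 10, Unigene6606_All, has katanin, a microtubule-severing protein, as its Swiss-Prot match, so the name cellulose synthase is uncertain for that piece. Unigene21539_All, a short CESA4 piece with 5, 22 and 40 fragments, was counted as higher with grazing (2.15, 0.71 to 3.91). None of the 21 cellulose synthases compared passed the threshold between the populations, where the median was 0.21, close to the legume-matched median. Over legume-matched transcripts 16.4% were higher and 10.3% lower there.

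One abundant transcript in this family has a doubtful name. CL13530.Contig1_All is named cellulose synthase by its protein match and gene model MTR_3g005560, but its Swiss-Prot match is CSLG3, a cellulose synthase-like protein. It had 744, 2499 and 3405 fragments, or 13.4, 45.3 and 62.8 FPKM. Both grazed libraries were far above the ungrazed one, 3.38-fold with grazing of the tolerant population (log2 ratio 1.76, 1.64 to 1.88) and a further 1.38-fold in the intolerant population (0.47, 0.39 to 0.54).

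COBRA proteins are anchored to the outer face of the plasma membrane and are needed for ordered cellulose deposition. Unigene12968_All, which matches COBRA itself, had 33.6, 54.7 and 104 FPKM, a step of 1.63-fold with grazing (log2 ratio 0.70, 0.60 to 0.80) and of 1.90-fold between populations (0.92, 0.84 to 1.00). A second COBRA match, CL1469.Contig1_All, had 1319, 1796 and 1641 fragments and so shared only the first step. COBL4 is known for secondary wall cellulose: CL513.Contig2_All had 4.19, 5.81 and 5.65 FPKM, and Unigene24826_All had 14, 29 and 69 fragments and passed the threshold in both comparisons (1.06, 0.10 to 2.10; 1.27, 0.63 to 1.95). In contrast, Unigene7084_All, the COBL7 match, had 70.5, 65.5 and 36.5 FPKM and was lowest in the intolerant library, 1.80-fold below the tolerant grazed one (-0.84, -0.93 to -0.76). COBRA itself and COBL7 therefore changed places between the libraries: COBL7 was the most abundant family member without grazing and Unigene12968_All the most abundant in the intolerant population. The summed level of the 8 members was 142, 174 and 199 FPKM, and its second step (log2 ratio 0.20) became -0.04 on rescaling.

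**Figure D3:**
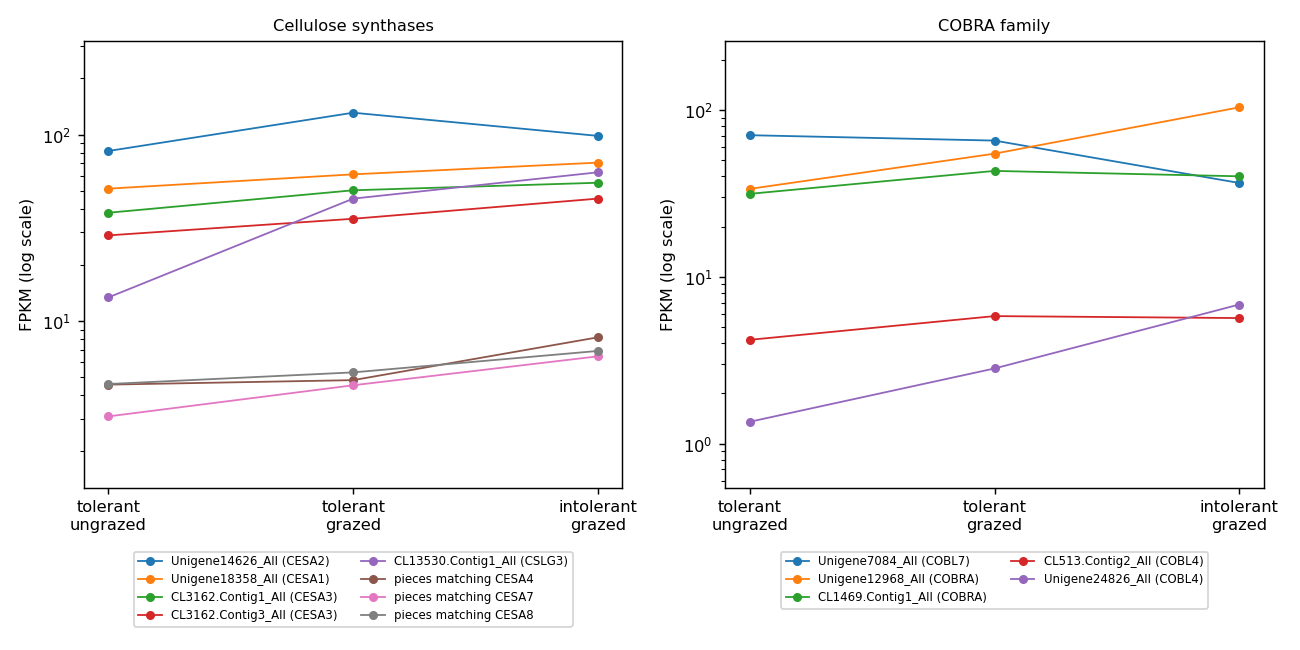
FPKM on a log axis in the 3 libraries for cellulose synthases (left) and COBRA proteins (right), with the Swiss-Prot match in parentheses. A point is 1 library, lines only join the values of a transcript, and for CESA4, CESA7 and CESA8 the value is the fragments of all pieces over their summed length. CESA2 peaks in the tolerant grazed library at 131 FPKM, the CSLG3 match climbs from 13.4 to 62.8, and the COBRA match Unigene12968_All climbs from 33.6 to 104 while COBL7 drops from 70.5 to 36.5.

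The cellulose synthase-like proteins split by subfamily. With grazing 7 of 29 were higher (24.1%) and 0 lower (median 0.36), beside 10.5% and 5.80% of legume-matched transcripts. Between populations 3 were higher (10.3%) and 5 lower (17.2%, median -0.42), beside 16.4% and 10.3% of legume-matched transcripts. CSLD proteins act in tip growth and at the forming cell plate. The 5 members matching CSLD5, a protein of dividing cells, had few fragments without grazing, 73 in sum, and had 320 in the tolerant grazed and 201 in the intolerant grazed library. The 3 of them that could be compared were all higher with grazing: Unigene23880_All had 25, 137 and 84 fragments (log2 ratio 2.47, 1.84 to 3.14), Unigene6639_All 24, 110 and 74 (2.21, 1.56 to 2.91) and Unigene23048_All 15, 47 and 26 (1.66, 0.79 to 2.60). They may be pieces of the same genes, and the same 3 had intervals wholly below 0 between the populations.

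CSLD2 and CSLD3, known from root hair growth, were little higher with grazing and lower in the intolerant population. CL4498.Contig2_All, of the CSLD3 gene model MTR_4g077910, had 16.6, 21.4 and 8.07 FPKM, and was 2.65-fold lower in the intolerant library (log2 ratio -1.40, -1.53 to -1.28). Unigene41208_All, with the same gene model, had 18.0, 23.4 and 13.7 FPKM, and Unigene4920_All, with a rice CSLD2 match, 1421, 1567 and 754 fragments. All of these were lowest in the intolerant library. One contig of the same cluster went the other way there, CL4498.Contig4_All, with 78, 100 and 185 fragments (0.91, 0.55 to 1.28), and how fragments were divided between the contigs of a cluster was not tested. Summed over the 8 CSLD members other than CSLD5, the fragments were 5222, 6630 and 3258 and the interval of the log2 ratio between populations ran from -1.06 to -0.94.

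CSLE and CSLG members followed other orders. The 4 members of the CSLE1 gene model MTR_3g060280 had 1187, 1013 and 2046 fragments, highest in the intolerant library (log2 ratio 1.04, 0.93 to 1.15), while CL906.Contig1_All, assigned to the gene model MTR_3g060240, had 236, 307 and 222 (-0.44, -0.70 to -0.19). The most abundant member of the family, Unigene4390_All, a CSLG2 match, had 78.1, 52.3 and 48.7 FPKM and was highest without grazing (-0.58, -0.65 to -0.51). The 7 members of MTR_2g037830, most of them CSLG1 or CSLE1 matches, had 457, 1082 and 555 fragments and peaked in the tolerant grazed library, at 1.25 (1.10 to 1.42) with grazing and -0.94 (-1.09 to -0.79) between populations. CL6612.Contig3_All, the longest of them, had 263, 697 and 305 fragments and passed the threshold in both comparisons, upward with grazing and downward between populations. Members matching CSLB or CSLH summed to 712, 669 and 561 fragments, with an interval that included 0 with grazing.

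Callose synthases were mostly higher in the intolerant population. With grazing 2 of 25 compared were higher (8%) and 1 lower (4%, median 0.42), beside 10.5% and 5.80% of legume-matched transcripts. Between populations 9 were higher (36.0%) and 0 lower (median 0.73), beside 16.4% and 10.3% of legume-matched transcripts. Of the 9, Unigene23286_All (9, 16 and 36 fragments) and CL6341.Contig2_All (10, 14 and 45) reached the minimum of 20 fragments only through the intolerant library. The summed level of callose synthases was 109, 153 and 222 FPKM, lowest without grazing and highest in the intolerant library. CALS9, known from pollen development, was the clearest: its 3 members had 521, 614 and 1433 fragments (log2 ratio between populations 1.25, 1.11 to 1.38), and CL7938.Contig2_All alone had 410, 491 and 1049. CALS10, required for cell division and plasmodesmata, was represented by Unigene11634_All with 833, 933 and 1226 fragments, and by Unigene26360_All with 56, 52 and 162, which was higher in the intolerant library only (1.66, 1.20 to 2.14).

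CALS7, which lays callose on the sieve plates of phloem, was low, and highest in the intolerant library: the 5 members of MTR_3g047390 had 93, 154 and 294 fragments (log2 ratios 0.74, 0.36 to 1.13, and 0.96, 0.67 to 1.25). CALS12, the enzyme of wound and pathogen callose, did not follow this order. Its longest transcript, Unigene17594_All, had 888, 1103 and 942 fragments, highest in the tolerant grazed library (0.32, 0.20 to 0.45, then -0.20, -0.33 to -0.08). CALS1, CALS2 and CALS3 act at cell plates and plasmodesmata. The nearly complete CALS1 match CL8052.Contig1_All, the longest member, had 1431, 1733 and 2101 fragments, with small steps of 0.29 and 0.30.

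Pieces of CALS3 moved apart from that transcript. Unigene6823_All had 167, 379 and 407 fragments (log2 ratio with grazing 1.19, 0.93 to 1.46), and CL8052.Contig3_All had 67, 164 and 157 (1.30, 0.88 to 1.73). Unigene26034_All, a piece of 279 bases that names the same gene model as Unigene6823_All, MTR_7g005950, had 36, 12 and 37 fragments and was the member furthest below 0 with grazing (-1.57, -2.65 to -0.60). Summed over the 8 members of that gene model, the fragments were 325, 543 and 735, and most of them came from Unigene6823_All. Besides this piece, Unigene27516_All (16, 9 and 25 fragments) and Unigene25484_All (13, 11 and 31) were lowest in the tolerant grazed library, both with too few fragments to be compared.

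Galacturonosyltransferases, which extend the homogalacturonan chains of pectin, leaned upward with grazing. Of 25 compared, 5 were higher (20%) and 0 lower (median 0.60), beside 10.5% and 5.80% of legume-matched transcripts. GAUT1, the catalytic subunit of the pectin-synthesising complex, had 5 members that were all above 0 in both comparisons, with 728, 1153 and 1252 fragments in sum (log2 ratio 0.67, 0.54 to 0.81, then 0.14, 0.03 to 0.26, the latter below 0 once the libraries are rescaled by 0.24). GAUT15 matches had 522, 1000 and 881 fragments, at 0.95 with grazing (0.79 to 1.10). The most abundant member, Unigene4251_All, matches GAUT8, the QUASIMODO1 protein of cell adhesion, and was the exception, with 48.0, 30.3 and 36.5 FPKM and its highest level without grazing (-0.66, -0.77 to -0.56).

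GAUT4, another pectin enzyme, was the family member whose level differed most between populations among those with over 1000 fragments in a library: CL9003.Contig1_All had 522, 676 and 1367 fragments (log2 ratio 0.38, 0.22 to 0.55, then 1.04, 0.90 to 1.17). GATL1, known as PARVUS and needed for xylan rather than pectin, had Unigene26383_All at 15.2, 28.1 and 27.7 FPKM and CL8297.Contig1_All at 22.0, 33.4 and 12.8 FPKM. Both were higher with grazing, but only CL8297.Contig1_All was lower in the intolerant library (-1.38, -1.66 to -1.10). The family sum of 197, 256 and 274 FPKM was highest in the intolerant library, a second step of 0.10 that became -0.14 on rescaling.

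Fasciclin-like arabinogalactan proteins fell into groups of opposite direction with grazing. The FLA11 and FLA12 matches are known for stem secondary walls, and their 10 members had 6231, 4876 and 5038 fragments in sum (log2 ratio -0.34, -0.40 to -0.29), with 7 below 0 and 3 above. Unigene1924_All had 56.0, 35.9 and 44.8 FPKM and Unigene22383_All 28.5, 15.2 and 15.6, each highest without grazing. Of the 3 above 0, only the FLA12 match Unigene6285_All had an interval wholly above 0, with 226, 669 and 633 fragments (1.58, 1.36 to 1.80). The 6 FLA16 matches were all higher than without grazing, with 4588, 7302 and 5365 fragments in sum (0.68, 0.63 to 0.74), and all had a ratio below 0 between populations (-0.42, -0.47 to -0.37), 4 of them with an interval wholly below 0. None of the shifts within the FLA11 and FLA12 group reached the threshold downward, and the groups were formed after the values were seen.

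Among the 151 members compared, the largest ratios with grazing were in FLA16-like pieces with few fragments. Unigene11112_All had 8, 108 and 84 fragments and Unigene13608_All 4, 43 and 40, both pieces naming MTR_2g087810, which had 12, 151 and 124 in sum (log2 ratio 3.66, 2.82 to 4.65). Both pieces were thus near the floor without grazing and clearly present in both grazed libraries. At high levels, Unigene9600_All, the FLA10 match, had 60.4, 138 and 98.9 FPKM and was 2.28-fold higher with grazing (1.19, 1.11 to 1.26), and Unigene6906_All, the FLA7 match, had 58.8, 92.0 and 94.2. Between the populations 1 family member of 28 compared passed the threshold, Unigene27810_All, with 96, 104 and 34 fragments (-1.59, -2.19 to -1.02). Over legume-matched transcripts 16.4% were higher and 10.3% lower there.

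Both other arabinogalactan members peaked in the tolerant grazed library. Unigene22339_All, which matches the short arabinogalactan peptide AGP16, had 63.5, 130 and 53.8 FPKM, 2.04-fold higher with grazing (log2 ratio 1.03, 0.88 to 1.18) and 2.41-fold lower in the intolerant library (-1.27, -1.43 to -1.11). CL7063.Contig1_All had 39, 67 and 40 fragments (0.79, 0.20 to 1.40, then -0.72, -1.32 to -0.14).

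**Figure D4:**
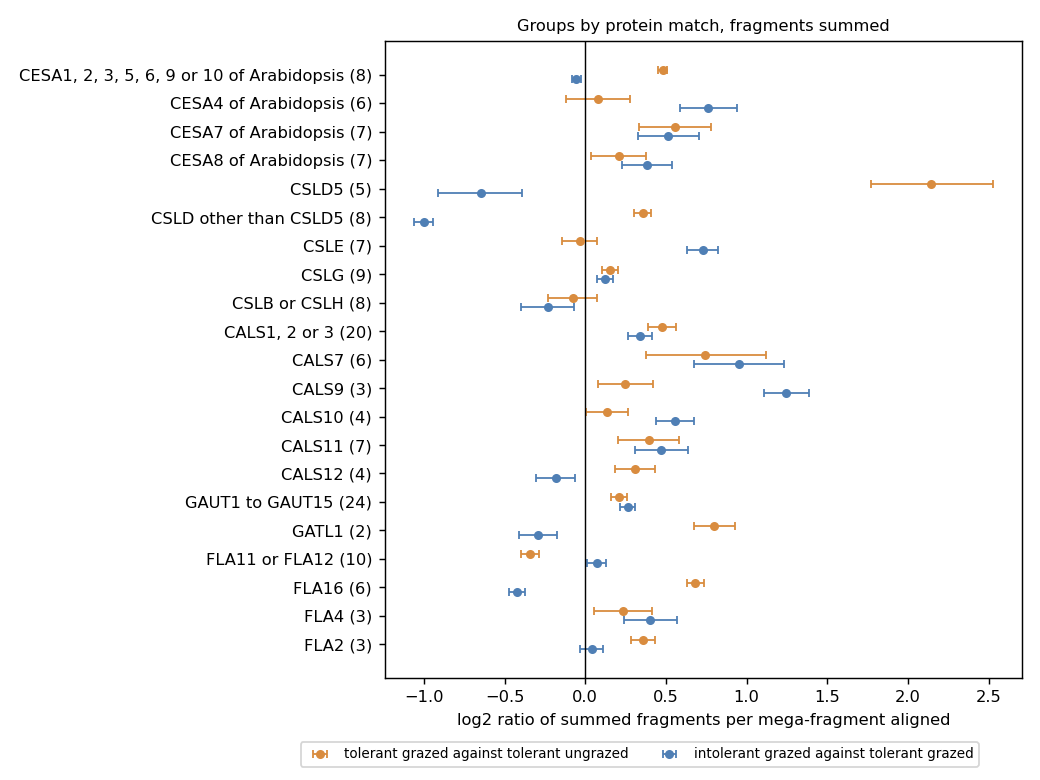
Log2 ratio of summed fragments per mega-fragment aligned (horizontal axis) for members grouped by the protein in their Swiss-Prot match, with the number of members in parentheses; bars are exact 95% intervals for counting error only. Orange is tolerant grazed against tolerant ungrazed and blue is intolerant grazed against tolerant grazed. CSLD5 stands apart with grazing (2.14), CALS9 between populations (1.25), and the other CSLD members lie furthest to the left between populations, with an interval of -1.06 to -0.94. FLA11 and FLA12 are below 0 with grazing while FLA16 is above.

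Extensins, rod-like glycoproteins that cross-link the wall, held most of the fragments of all members and had the largest spread. Their summed level was 17789, 12609 and 6746 FPKM, while the other 198 members summed to 1710, 2202 and 2184. The classical extensins were highest without grazing and lowest in the intolerant library. Unigene1179_All had 6826, 5096 and 2797 FPKM (log2 ratio -0.42, -0.44 to -0.40, then -0.87, -0.89 to -0.84), and Unigene423_All, a match to a root nodule extensin of pea, had 2429, 959 and 508 FPKM (-1.34, -1.37 to -1.32, then -0.92, -0.95 to -0.88). The order of the libraries was the same in both.

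A second pea nodule extensin match, Unigene4025_All, had 3132, 1131 and 718 FPKM, a 2.77-fold lower level with grazing. CL12758.Contig2_All had 4984, 4871 and 2037 FPKM and so differed from the rest in being near equal in both tolerant libraries (-0.03), a value that turned above 0 as TPM (0.08), before a 2.39-fold lower level in the intolerant library (-1.26, -1.28 to -1.24). Unigene25250_All had 143, 110 and 60.9 FPKM. These 5 transcripts, whose Swiss-Prot match is an extensin of carrot or Arabidopsis, had 188374, 133805 and 63441 fragments in sum, and how fragments were divided between similar extensin contigs was not tested. All 5 were below 0 in both comparisons as deposited.

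The leucine-rich repeat extensins, which link the wall to growth at the cell surface, had another order. The contigs of MTR_6g086120, matching LRX3, had 19566, 23952 and 15156 fragments in sum, highest in the tolerant grazed library (log2 ratio 0.30, 0.28 to 0.33, then -0.64, -0.67 to -0.61). Unigene8811_All, the LRX5 match, had 9.63, 73.8 and 33.0 FPKM, 7.67-fold higher with grazing (2.94, 2.81 to 3.07) and 2.24-fold lower in the intolerant population (-1.16, -1.24 to -1.08). Among members with over 1000 fragments in a library, this was the largest difference with grazing.

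Extensin-named transcripts of a different make were highest in the intolerant library. The contigs CL3407.Contig1_All, CL3407.Contig4_All and CL3407.Contig6_All are named as lipid transfer proteins joined to a pistil-specific extensin-like protein, and were higher in both comparisons. CL3407.Contig1_All had 4.73, 16.4 and 109 FPKM, 3.48-fold higher with grazing (log2 ratio 1.80, 1.48 to 2.13) and 6.62-fold higher in the intolerant library (2.73, 2.57 to 2.89). The 4 transcripts named as pollen Ole e 1 allergen and extensin, of 16 extensin members, were low in both tolerant libraries: CL6373.Contig1_All had 18, 25 and 261 fragments, 10.6-fold higher in the intolerant library (3.41, 2.81 to 4.06), and Unigene20737_All had 34, 55 and 265 (2.29, 1.87 to 2.74). All 4 had intervals wholly above 0 between the populations. Their Swiss-Prot matches are to unlike proteins rich in proline, so the names are loose.

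Unigene13291_All, an extensin-like transcript with no Swiss-Prot match, had 230, 107 and 0 fragments. It was 2.13-fold lower with grazing (log2 ratio -1.09, -1.44 to -0.76) and, with 3 fragments as the floor of the intolerant library, at least 35.1-fold lower there. It was the only member lower in both comparisons.

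**Figure D5:**
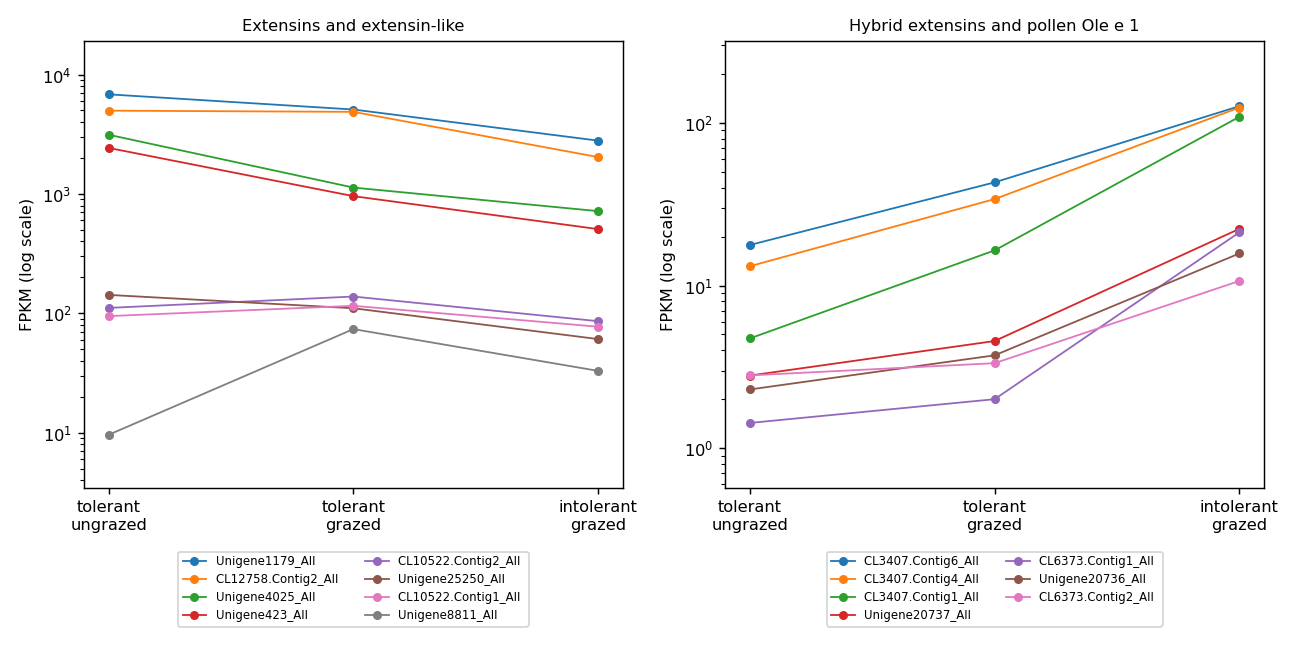
FPKM on a log axis in the 3 libraries for 8 extensins and leucine-rich repeat extensins (left) and for 7 transcripts named as lipid transfer and pistil-specific extensin or as pollen Ole e 1 allergen and extensin (right); a point is 1 library and lines only join the values of a transcript. The classical extensins on the left drop to the right, from 6826 to 2797 FPKM in Unigene1179_All, Unigene8811_All peaks in the tolerant grazed library at 73.8, and all 7 on the right are highest in the intolerant library. Unigene13291_All is not drawn because its FPKM was 0 in the intolerant library.

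In all, 9 of the 151 members passed the threshold in both comparisons, which share the tolerant grazed library. The share of all transcripts that did so was not computed, so whether 9 is many for such a list was not tested. The 4 higher in both were Unigene24826_All and the 3 CL3407 contigs, and the 1 lower in both was Unigene13291_All. The 3 that peaked in the tolerant grazed library were CL6612.Contig3_All, Unigene8811_All and Unigene22339_All, a CSLG1, an LRX5 and an AGP16 match. The 1 with its lowest count there was the callose synthase piece Unigene26034_All.

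Other genes of wall polymers were followed by annotation lists, which also caught names outside synthesis. Substrate supply, mainly sucrose synthase, which makes UDP-glucose for cellulose and callose, had 6 of 49 transcripts higher (12.2%) and 14 lower (28.6%) with grazing, beside 10.5% and 5.80% of the legume-matched transcripts, with a summed level of 3611, 1614 and 2252 FPKM. The most abundant sucrose synthase, CL1276.Contig1_All, had 42751, 12258 and 15747 fragments, lowest in the tolerant grazed library (log2 ratio -1.79), while the median of the list was 0.25, of opposite sign to the sum (-1.16). Between populations 15 of the 49 were higher (30.6%) and 10 lower (20.4%), beside 16.4% and 10.3% of the legume-matched transcripts. Xylan and xyloglucan genes had 10 of 57 higher (17.5%) and 0 lower with grazing (median 0.40), and 8 higher (14.0%) and 3 lower (5.26%) between populations, both below the legume-matched shares there. This list also holds enzymes that cut xylan, xylosidases and endo-xylanases. Most of the 10 higher with grazing were of these, such as CL44.Contig3_All (log2 ratio 1.77), so they do not count as synthesis genes. The cellulose-associated list held endoglucanases, chitinase-like proteins and inhibitors of xyloglucan-specific endoglucanase. Of 15 compared, 5 were higher (33.3%) and 3 lower with grazing, and 2 were higher (13.3%) and 0 lower between populations. The 13.3% was also below the legume-matched share. The 5 were all named endoglucanase. The 3 lower were the inhibitor Unigene7415_All (log2 ratio -1.09), and Unigene12516_All (-1.47) and Unigene684_All (-1.89), both named acidic mammalian chitinase-like. Unigene7415_All was also among the 2 higher between populations (1.61). The substrate list thus had its sum 2.24-fold lower with grazing, while the summed level of cellulose synthases was 1.35-fold and that of callose synthases 1.41-fold higher. The cellulose synthase sum includes the doubtfully named CSLG3 match CL13530.Contig1_All, which had 13.4 FPKM in the tolerant ungrazed and 45.3 in the tolerant grazed library.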

How the data were processed

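RNA of 3 bulks was sequenced, 1 library per condition. The authors used Trinity for de novo assembly and TGICL for clustering, and deposited, for each transcript, its length, the count of fragments uniquely aligned with SOAP, which is not normalized, and the FPKM derived from it. Program versions are not given in the sources used here. Annotations are the authors' best BLAST matches, which name a family but not an orthologue.

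Groups follow the sample labels. All columns with values of a library were used (0 left out). Recomputing FPKM from counts, lengths and totals gave the deposited values within 5e-05. Log2 ratios of FPKM used 0.01 in place of 0, a threshold of 1 and a minimum of 20 fragments on average over the 3 libraries, and a fold against a library at 3 or fewer fragments was taken against 3. Intervals at 95% and sums were computed with Python 3.11.15, numpy 2.4.6, pandas 2.3.3 and scipy 1.17.1, and figures with matplotlib 3.10.9. The calculations were tested on simulated data. The study's joint rule, which adds a Poisson test with a false discovery rate limit of 0.001, was run as an alternative and compares libraries, not conditions.

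The named transcripts, 41 in number, were all members of families with at most 4 members, the 4 most abundant of each larger family and, in each comparison, the 4 highest and 4 lowest log2 ratios. Further transcripts, and the groups by Swiss-Prot match or gene model, were chosen after their values were seen. The members and lists were chosen with earlier results of these data known. Sequences and genome coordinates were not analysed here.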

Additional observations from a re-analysis of the deposited data

How the results depend on the processing

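The direction of the members with grazing was kept under the 10 planned and 3 added settings, the latter chosen after seeing the data, while that between populations was not. With grazing, the 31 members past the threshold (26 higher, 5 lower) became 14 (11 and 3) with a minimum of 100 fragments, 66 (50 and 16) with no minimum, 6 (6 and 0) at a log2 ratio of 2 and 107 (79 and 28) when counting intervals that exclude 0. Their median of 0.39 became 0.50 as TPM. Between populations, the 34 members (23 and 11) became 21 (11 and 10), 63 (47 and 16), 5 (4 and 1) and 102 (62 and 40) under the same settings. Rescaling by the median ratio gave 36 with the balance reversed (17 and 19, or 47.2% higher instead of 67.6%) and a median of -0.12 instead of 0.12, and leaving the cluster CL4238 out of the totals, 7.76%, 11.5% and 3.27% of fragments, gave a median of -0.0074. The changes under rescaling follow from its construction, a shift of every ratio by 0.24. The study's joint rule with the Poisson test gave 22 (19 and 3) and 32 (21 and 11). Family sums changed sign only between populations and only for COBRA (0.20 to -0.04), cellulose synthases (0.17 to -0.07) and galacturonosyltransferases (0.10 to -0.14 on rescaling, -0.03 without CL4238). No paired analysis was possible because each group had 1 library. A transcript with 20 fragments has wide intervals, so low-count pieces support a direction only where their interval excludes 0.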
